A study of Homo sapiens with 11 samples.

Results

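Doxorubicin and etoposide were compared directly in 2 human cancer cell lines. The libraries were chosen by their labels: 2 doxorubicin libraries, 2 etoposide libraries and the 2 DMSO libraries whose titles carry no time, 6 of the 11 libraries of the series. The lines were U2OS, an osteosarcoma line, and MDA-MB231, a breast cancer line of basal type. Each line had 1 library of 1 µM doxorubicin and 1 library of 20 µM etoposide, both after 8 h, and 1 DMSO library for which no duration is given. These doses are the 72 h IC50 of each drug in the study's design, so they differ in concentration. Each line is 1 established tumour line, taken from sub-confluent dishes in medium with serum, and nothing says that its libraries came from separate cultures. P-values therefore measure only the spread left in the fit of all 11 libraries. That spread holds differences in drug effect between the lines and may otherwise be technical. With 1 library per line and drug, no value within a line has a replicate check.

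Both drugs are topoisomerase II poisons. The enzyme passes one DNA duplex through a break it has made in another, and the drugs hold it on the broken DNA, so that breaks persist. Doxorubicin is an anthracycline that also intercalates into DNA and is known to evict histones and to interfere with transcription, whereas etoposide is a podophyllotoxin derivative that does not intercalate. DNA breaks normally engage the checkpoint kinases and p53, which drives targets such as CDKN1A and MDM2.

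Levels are CPM, read counts scaled to a common library size by TMM, and fold changes are log2 values of doxorubicin minus etoposide averaged over both lines, from an edgeR quasi-likelihood fit with a term for the cell line. That term is a block of 3 levels, which also sets apart the MDA-MB231 libraries with 8hr in the title. A gene was called at an adjusted p under 0.05, and the values after a fold change are its SE and adjusted p. Gene counts ranged from 18959126 to 31588683 reads in these 6 libraries. Reads aligned to several places, which no gene received, made up 37.5% and 34.4% of the reads in the doxorubicin libraries of U2OS and MDA-MB231, 31.5% and 28.4% in the etoposide libraries, and 32.7% and 30% in DMSO. With doxorubicin, 8.07% and 6.33% of gene counts fell on the top 20 genes, with etoposide 4.5% and 4.57%, and with DMSO 5.32% and 4.8%. The part of these differences in the results was not tested. In bulk RNA, fewer cells of a kind and less RNA per cell cannot be told apart.

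The line markers separated the lines in part. SPARC, a matrix protein of bone, stood at 934 CPM in U2OS and 1.49 CPM in MDA-MB231 with DMSO, and KRT19, an epithelial keratin, at 0.205 and 167 CPM. Other markers ran against the line labels with DMSO. KRT17, on the breast epithelial list, was at 510 CPM in U2OS and 1.14 in MDA-MB231, and KRT8 and KRT18 were also higher in U2OS. CDH11, on the osteoblast and mesenchymal list, was at 16.2 and 286 CPM, and RUNX2 at 23.3 and 34.3. The osteoblast genes SP7, BGLAP and IBSP had 13 reads or fewer in each of the 6 libraries, so these defining genes were at or near 0 also in U2OS, and VIM and KRT7 were abundant in both lines. Of 13 blood and immune markers, 7 had 0 reads in U2OS DMSO and 8 in MDA-MB231 DMSO. Their summed CPM was 22.1 (U2OS) and 134 (MDA-MB231) with DMSO, 29.1 and 181 with etoposide and 55.9 and 237 with doxorubicin, mostly from CD68, a lysosomal gene that other cells also express. The 7 endothelial markers summed to between 1.84 and 18.4 CPM in the 6 libraries.

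The drugs left widely different RNA levels. Of 15888 genes tested, 7367 (46.4%) were called between doxorubicin and etoposide, 3831 (24.1%) higher and 3536 (22.3%) lower with doxorubicin. Of these, 2497 (15.7%) were both called and at least 2-fold higher and 2475 (15.6%) at least 2-fold lower. At the other end, 3538 genes (22.3%) had a 95% interval wholly within 2-fold either way. Against DMSO, doxorubicin gave 6748 calls (42.5%), 3476 higher (21.9%) and 3272 lower (20.6%). Etoposide gave 2734 calls (17.2%), 1267 higher (7.97%) and 1467 lower (9.23%). That count moved most with the libraries: it was 49 without the MDA-MB231 DMSO library, 290 without MDA-MB231 etoposide 381 without U2OS DMSO, and 1718 and 1738 without the MDA-MB231 and the U2OS paclitaxel library. Without the MDA-MB231 and the U2OS doxorubicin library it was 3655 and 3709, and a fit of the 6 libraries alone gave 1362. Doxorubicin minus DMSO gave 4058 calls without the MDA-MB231 DMSO library and 4367 without the U2OS one. The 2 contrasts with DMSO share the DMSO libraries, so their values are given side by side and not set against each other. The split between higher and lower depended on the scaling: when total gene counts replaced TMM, the median of all genes moved from 0.08 to -0.27 and the calls became 2404 higher and 4972 lower, which took the share of calls that were higher from 52% to 32.6%. Directions are relative to the TMM scale. Counts of list members are to be read against the shares of all genes called higher and lower in the same contrast. These are 24.1% and 22.3% directly, 21.9% and 20.6% for doxorubicin against DMSO, and 7.97% and 9.23% for etoposide against DMSO. The list counts also shrank without the term for the cell line, to 43 higher and 0 lower for cytosolic ribosomal proteins, 34 and 0 for the respiratory chain, 3 and 111 for ZNF genes, 2 and 0 for matrix genes, 2 and 0 for very long genes, 1 and 2 for NF-kB targets, 0 and 3 for p53 targets, 2 and 3 for immediate early genes and 0 and 9 for mitosis genes (edgeR). That fit drops the whole block and the pairing by line, so differences in level between the lines enter its spread.

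Within each line the ratio was taken from 1 library per drug, with 0.5 added to each CPM, for genes that reached 5 CPM with either drug. In U2OS, 2139 genes (18.1% of 11827) were at least 2-fold higher and 2264 (19.1%) at least 2-fold lower with doxorubicin. In MDA-MB231 the counts were 1824 (16.3% of 11202) and 2457 (21.9%). With total-count scaling these splits became 832 and 3916 in U2OS and 1154 and 3052 in MDA-MB231. Among 10604 genes measured in both lines, 1038 (9.79%) were 2-fold higher in both, 1427 (13.5%) 2-fold lower in both, and 17 (0.16%) 2-fold apart in opposite directions. The plot of the U2OS ratio against the MDA-MB231 ratio shows these genes.

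**Figure D1:**
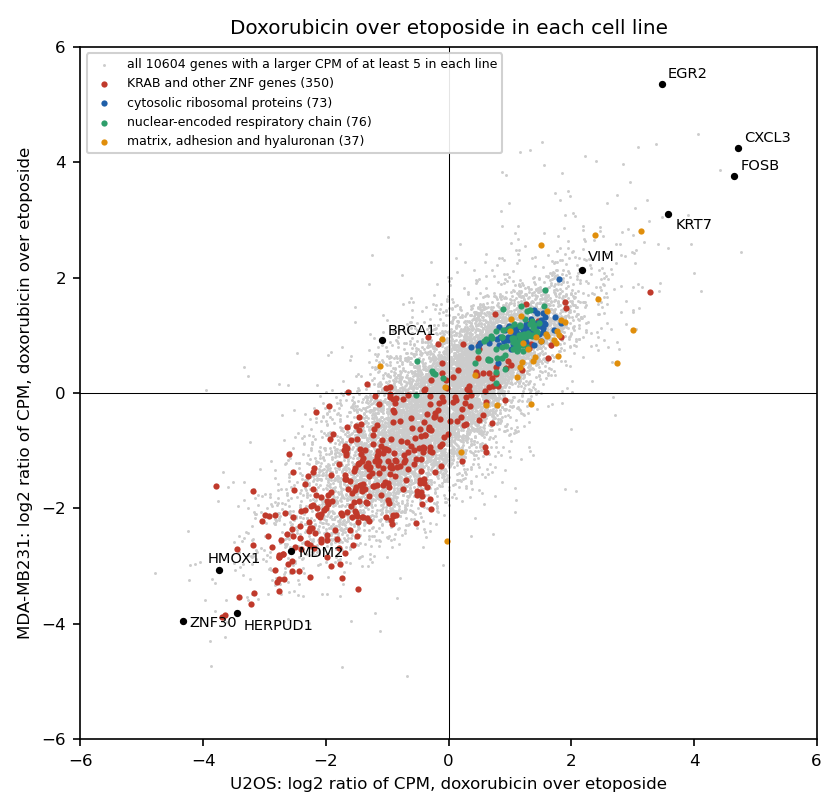
Each point is a gene, with the log2 ratio of scaled CPM (doxorubicin over etoposide, 0.5 added) in U2OS on the x axis and in MDA-MB231 on the y axis, 1 library per drug and line. Ribosomal protein and respiratory chain genes gather near 1 on both axes, most ZNF genes lie below 0 on both, and 17 of 10604 genes are 2-fold apart in opposite directions.

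The genes highest with doxorubicin relative to etoposide were regulatory and secreted factors. FOSB, a FOS-family transcription factor of the immediate early response, was at 0.973 CPM with DMSO, 7.71 with etoposide and 206 with doxorubicin in U2OS, and at 1.38, 27.8 and 386 in MDA-MB231. Both doxorubicin libraries lay above both etoposide libraries, and the difference was 4.19 (SE 0.42, adjusted p 0.000193). EGR2, an early zinc finger factor, went from 0.666 and 0.118 CPM with DMSO (13 and 3 reads) to 2.87 and 4.31 with etoposide and 36.9 and 197 with doxorubicin, a difference of 4.89 (SE 0.8, adjusted p 0.00137). The EGR2 value was 2.94 without MDA-MB231 doxorubicin and 5.99 without U2OS doxorubicin, while FOSB gave 4.92 without MDA-MB231 etoposide. LGR5, a receptor for R-spondins, was at 0.351 and 0.193 CPM with etoposide (13 and 6 reads) and 8.98 and 5.24 with doxorubicin in U2OS and MDA-MB231, a difference of 4.67 (SE 0.52, adjusted p 0.000276). RGS16, which shortens G protein signals, was at 3.6 and 4.28 CPM with etoposide, near its DMSO levels of 3.02 and 3.07, and at 41.9 and 94.9 with doxorubicin. Its difference was 4.08 (SE 0.39, adjusted p 0.000164), and 3.3 without MDA-MB231 doxorubicin and 4.67 without U2OS doxorubicin. NFATC4, a calcium-regulated transcription factor, gave 3.82 (SE 0.46, adjusted p 0.000357), and 4.56 without U2OS etoposide. SLC16A6, SPOCK2, SEPT4, SERPINA3 and FES were also among the 12 highest, with differences of 4.23, 4.22, 3.85, 3.82 and 3.66, as was the chemokine gene CXCL3. Each of the former 5 moved by more than 1.5 times when a doxorubicin library was left out: without MDA-MB231 doxorubicin they were 3.2, 3.04, 2.6, 2.47 and 1.79, and without U2OS doxorubicin 5.29, 5.21, 4.75, 4.97 and 5.6. Without U2OS etoposide SLC16A6 gave 5.09 and SERPINA3 4.73, and without MDA-MB231 etoposide SERPINA3 gave 3.13. The FES call was lost without MDA-MB231 etoposide (adjusted p 0.0688) and without U2OS etoposide (adjusted p 0.0787), and its libraries overlapped between drugs. Without the term for the cell line, the calls of CXCL3, SLC16A6, SPOCK2, SERPINA3 and FES were lost.

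The 12 lowest genes held 4 ZNF genes, which encode zinc finger proteins, and genes of varied function. ZNF30 was at 7.68 CPM with DMSO, 18.4 with etoposide and 0.439 with doxorubicin in U2OS, and at 8.89, 16 and 0.561 in MDA-MB231. Its difference was -5.1 (SE 0.35, adjusted p 0.0001), and it was called above DMSO with etoposide (1.11) and below DMSO with doxorubicin (-3.98). LRRC8E, a subunit of the volume-regulated anion channel, was at 21.7 and 57.4 CPM with etoposide and 1.27 and 2.57 with doxorubicin, a difference of -4.3 (SE 0.26, adjusted p 0.0001). BRF2, a subunit of an RNA polymerase III initiation factor, was at 46.4 and 31.4 CPM with etoposide and 3.32 and 1.54 with doxorubicin, a difference of -4.07 (SE 0.3, adjusted p 0.000101). NLRP3, the sensor of an inflammasome, gave -4.16 (SE 0.65, adjusted p 0.00109), and -3.51 without MDA-MB231 etoposide. ZNF484, ZNF552 and ZNF624 gave -4.7, -4.19 and -3.98, KBTBD6 -4.48, TSPYL5 -4.07, CCDC75 -4.02, TMEM177 -4.95 and RFXAP -4.71. RFXAP had the widest range, -7.52 without MDA-MB231 doxorubicin and -3.71 without U2OS doxorubicin, TMEM177 gave -5.55 and -4.29 without them, and CCDC75 -4.71 without the former. With doxorubicin RFXAP had 1 read in U2OS and 14 in MDA-MB231, so its fold rests on few reads. The TSPYL5 call was lost without the term for the cell line. In all 12, both doxorubicin libraries lay below both etoposide libraries.

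Immediate early genes are transcribed within minutes of a stimulus and many of their mRNAs are short-lived. Of 45 tested, 3 were called higher and 18 lower with doxorubicin than with etoposide (6.67% and 40%, median -0.64, against 0.08 for all genes). With 1 library left out the lower count was 16 to 19 and the higher count 2 to 6, with 5 without MDA-MB231 doxorubicin and 6 without U2OS doxorubicin. Against DMSO, 16 were called higher and 5 lower with etoposide (median 0.6), and 12 higher and 19 lower with doxorubicin (median -0.61). The list did not move as a block. FOS, the partner of JUN in AP-1, was at 3.79, 30.9 and 18.7 CPM with DMSO, etoposide and doxorubicin in U2OS and at 2.83, 45 and 24.5 in MDA-MB231, so it was above DMSO with both drugs (3.3 and 2.49, both called). Its direct difference of -0.82 was not called (adjusted p 0.0944, 95% interval -1.64 to 0.01). EGR1 had 87.8 and 268 CPM with etoposide and 120 and 252 with doxorubicin, a difference of 0.06 with an interval of -1.51 to 1.63. ATF3 (0.86, -0.35 to 2.08), MYC (0.41, -0.32 to 1.14) and JUN (-0.19, -0.65 to 0.27) were not called either. DUSP1, a phosphatase that inactivates MAP kinases, was at 70.9 and 232 CPM with etoposide, above its DMSO levels of 40.3 and 109, and at 19.6 and 32.1 with doxorubicin, below them. Its direct difference was -2.37 (SE 0.26, adjusted p 0.000266). CYR61 and CTGF, matrix-associated YAP targets, had a larger ratio between the drugs in MDA-MB231 than in U2OS. CYR61 was at 1870 CPM with etoposide and 68.6 with doxorubicin in MDA-MB231, and at 182 and 54.3 in U2OS. CTGF was at 373 CPM with DMSO, 3810 with etoposide and 127 with doxorubicin in MDA-MB231, and at 239, 158 and 98.4 in U2OS. The CTGF call (-3.53, adjusted p 0.0238) was lost when any of 6 libraries was left out, with -0.76 (adjusted p 0.305) without MDA-MB231 etoposide and -4.84 without U2OS etoposide. CYR61 gave -3.16 (adjusted p 0.00346), with -2.28 without either MDA-MB231 drug library, -4.38 without U2OS doxorubicin and -3.97 without U2OS etoposide. The calls of DUSP1 and CYR61 were also lost without the term for the cell line.

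**Figure D2:**
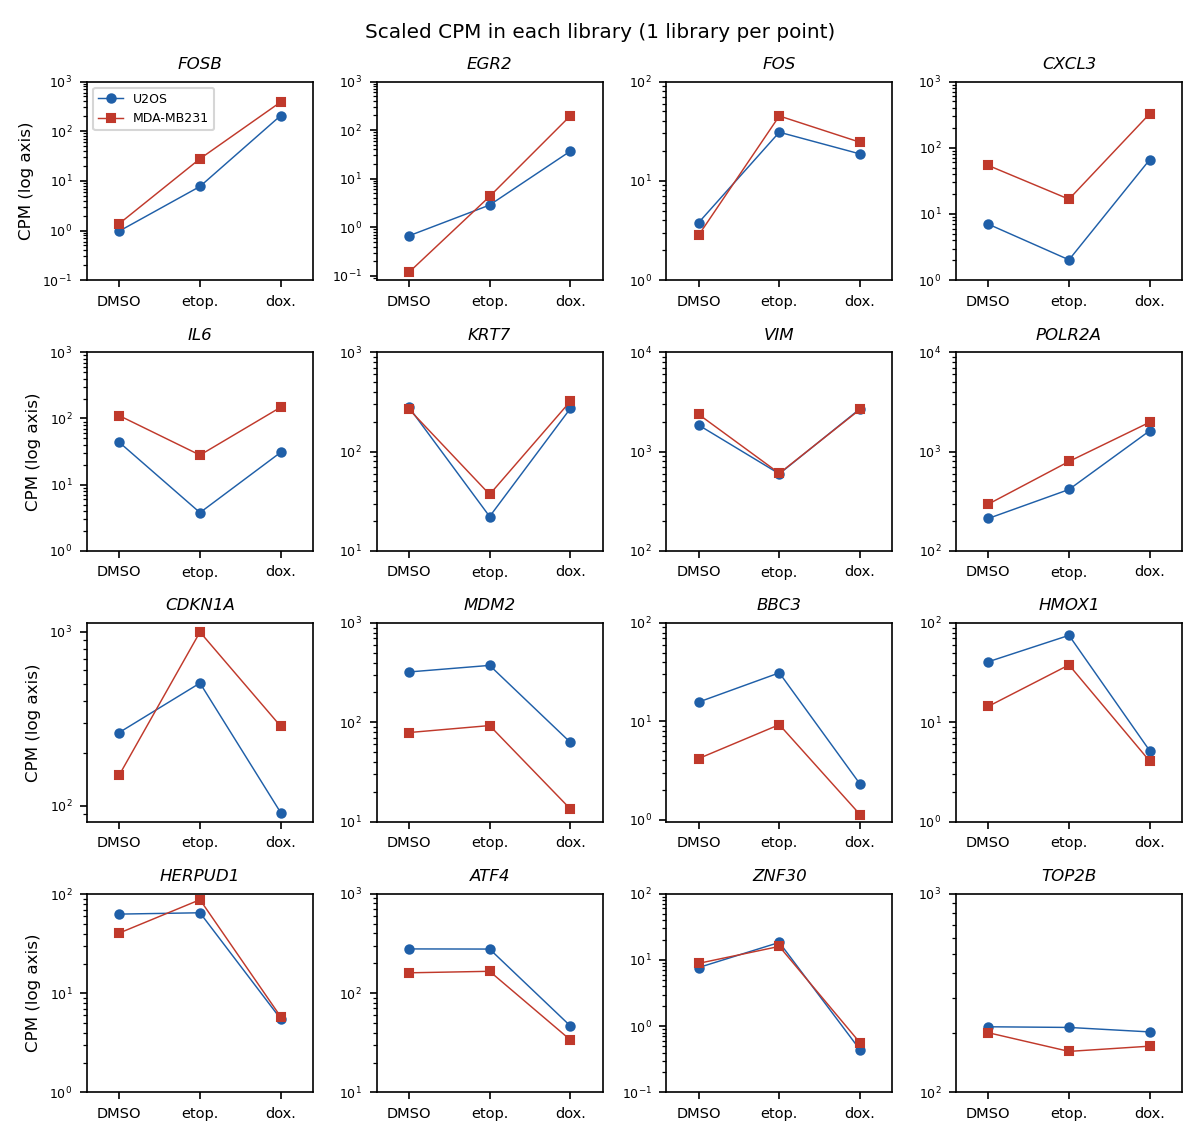
Scaled CPM on a log axis of 16 genes in the DMSO, etoposide and doxorubicin libraries of U2OS (circles) and MDA-MB231 (squares), 1 library per point, with lines joining the libraries of 1 cell line. FOSB and EGR2 are highest with doxorubicin, KRT7, VIM and IL6 are lowest with etoposide, MDM2, BBC3, HMOX1, HERPUD1, ATF4 and ZNF30 are lowest with doxorubicin, and TOP2B stays between 161 and 214 CPM.

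Of 39 inflammatory cytokines and NF-kB targets tested, 14 were called higher and 5 lower with doxorubicin (35.9% and 12.8%, median 0.51). Total-count scaling gave 11 higher and 8 lower (median 0.19), and the fit without the term for the cell line 1 and 2. Against DMSO, etoposide gave 1 higher and 8 lower (median -0.35) and doxorubicin 11 higher and 6 lower (median 0.18). CXCL3, a neutrophil-attracting chemokine, was at 7.02 CPM with DMSO, 2.03 with etoposide and 66 with doxorubicin in U2OS and at 54, 16.7 and 326 in MDA-MB231, a difference of 4.66 (SE 0.56, adjusted p 0.000356). IL6, an inflammatory cytokine, was at 43.7, 3.78 and 30.8 CPM in U2OS and 110, 28 and 148 in MDA-MB231 in the same order. Its difference was 2.63 (SE 0.34, adjusted p 0.000486), and 3.28 without MDA-MB231 etoposide. IL6 was called below DMSO with etoposide (-2.64, adjusted p 0.00508), whereas its doxorubicin value was -0.01 (adjusted p 0.985). IL8, a chemokine now named CXCL8, followed the same order, 65.1, 24.4 and 115 CPM in U2OS and 1210, 410 and 1220 in MDA-MB231, with a difference of 1.92 (SE 0.26, adjusted p 0.000542). The IL8 levels overlapped between drugs across the lines and not within a line. CCL2, which attracts monocytes, gave 3.77 (SE 0.51, adjusted p 0.000559), and 3.16 without U2OS doxorubicin. CXCL5 gave 4.68 (SE 0.81, adjusted p 0.00172) from levels of 0.0541 and 0.161 CPM with etoposide, 2 and 5 reads, so its fold rests on few reads. NFKBIA, the inhibitor that holds NF-kB in the cytoplasm and is itself an NF-kB target, ran the other way: 75.5 and 148 CPM with etoposide and 22 and 37.9 with doxorubicin, a difference of -1.86 (SE 0.34, adjusted p 0.00213). Without the term for the cell line, the calls of CXCL3, CXCL5, IL6, IL8 and NFKBIA were lost.

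Promoters were read from RefSeq (GRCh38.p14), which gave a window for 32 of the 39 genes of this list. A consensus for NF-kB sites (GGG, any 2 bases, TTTCC) was searched on both strands in the 250 bases upstream of the start site. The motif occurred in 13 of the 32, against 1.92% of the 11955 tested genes with a window and 1.73% of all 27305 promoters, in a list that was assembled as NF-kB targets. The 13 genes are named because they hold the motif: IL6, CXCL1, CXCL2, CXCL3, CXCL5, TNFAIP3 and IL32 were called higher with doxorubicin, NFKBIA and BIRC3 were called lower, and CCL20, NFKBIZ, NFKB1 and REL were not called. The 120 bases upstream of the start site of 4 of them are shown because they carry the same motif while their RNA differed in opposite directions. Capitals mark the motif, which starts at position -79 in CXCL3, -91 in CXCL5, -73 in IL6 and -81 in NFKBIA, where it lies on the reverse strand.
CXCL3: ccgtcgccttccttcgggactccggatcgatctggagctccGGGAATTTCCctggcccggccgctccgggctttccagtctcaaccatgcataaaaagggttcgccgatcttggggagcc
CXCL5: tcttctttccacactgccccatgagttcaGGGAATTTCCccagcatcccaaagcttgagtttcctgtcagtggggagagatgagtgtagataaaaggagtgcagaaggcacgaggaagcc
IL6: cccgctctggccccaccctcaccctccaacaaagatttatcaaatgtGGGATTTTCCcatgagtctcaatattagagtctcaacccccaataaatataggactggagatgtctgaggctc
NFKBIA: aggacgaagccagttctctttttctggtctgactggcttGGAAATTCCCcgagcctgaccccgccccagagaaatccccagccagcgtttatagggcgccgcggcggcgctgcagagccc
These windows are chr4:74038690-74038809 (minus strand), chr4:73998678-73998797 (minus), chr7:22727080-22727199 (plus) and chr14:35404750-35404869 (minus). Over all genes, the motif was in 1.95% of the promoters of genes called higher with doxorubicin and 1.74% of those called lower, close to its share in all tested genes. Of the other motifs searched in the same windows, TATAAA was in 7.42% of higher and 4.38% of lower genes (6.06% of tested genes), the CArG box bound by serum response factor in 1.61% and 0.729% (1.08%), CCGGAAG of the ETS family in 14.1% and 18.7% (14.5%), TGACGTCA of the cyclic AMP response element in 2.7% and 3.47% (2.75%), and CCAAT in 34% and 35.9% (34.6%). These shares are descriptions, and a match is not a bound site.

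p53 targets were called lower with doxorubicin more often than higher. Of 50 tested, 7 were called higher and 21 lower (14% and 42%, median -0.55). Within lines the median was -0.53 (U2OS) and -0.46 (MDA-MB231). The list is one of RNA levels: p53 activity was not measured, and the p53 status of each line was not taken into account. Against DMSO, etoposide gave 10 higher and 2 lower (median 0.21) and doxorubicin 4 higher and 12 lower (median -0.28). CDKN1A, the p21 inhibitor of cyclin-dependent kinases, was at 263 CPM with DMSO, 507 with etoposide and 91.2 with doxorubicin in U2OS and at 150, 996 and 286 in MDA-MB231. Etoposide was the highest library of each line, and the direct difference was -2.02 (SE 0.52, adjusted p 0.0115). The CDKN1A call was lost without MDA-MB231 etoposide (-1.47, adjusted p 0.138) and without U2OS doxorubicin (-1.3, adjusted p 0.0909), and the value was -3.23 without MDA-MB231 doxorubicin. MDM2, a ubiquitin ligase and a target of the pathway, was at 321, 374 and 62.8 CPM in U2OS and at 78.9, 92.8 and 13.4 in MDA-MB231, a difference of -2.68 (SE 0.21, adjusted p 0.000119). With etoposide MDM2 was within its spread of DMSO (0.12, adjusted p 0.705), and with doxorubicin it was called lower (-2.56). GDF15, a secreted stress factor, was not called (-0.51, 95% interval -1.9 to 0.87). SERTAD1, the lowest member of the list, was at 110 and 169 CPM with etoposide against 26.9 and 26.4 with DMSO and 5.81 and 21.3 with doxorubicin (-3.47, SE 0.43, adjusted p 0.000395), and gave -2.78 without U2OS doxorubicin and -4.51 without MDA-MB231 doxorubicin. PHLDA3, an inhibitor of AKT, gave -2.88 (adjusted p 0.000516), -2.17 without U2OS doxorubicin and -3.47 without MDA-MB231 doxorubicin. The higher count of the list was 2 to 6 with any 1 library left out, lowest without MDA-MB231 etoposide, and the lower count 15 to 21, and total-count scaling gave 1 higher and 25 lower. The calls of CDKN1A, MDM2 and PHLDA3 were lost without the term for the cell line.

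Of 36 apoptosis regulators, 5 were called higher and 15 lower (median -0.53), with 3 and 12 without MDA-MB231 etoposide. Of these 36, 12 also belong to other lists. BBC3 (PUMA), a BH3-only activator of cell death and a p53 target, was at 15.7, 31.1 and 2.3 CPM with DMSO, etoposide and doxorubicin in U2OS and at 4.17, 9.24 and 1.12 in MDA-MB231, a difference of -3.42 (SE 0.31, adjusted p 0.000148). BAK1, a pore former of the mitochondrial outer membrane, was at 39.6 and 89.1 CPM with etoposide and 4.93 and 8.93 with doxorubicin (-3.16, SE 0.21, adjusted p 0.0001). The lower members included survival genes as well: MCL1, a short-lived BCL2 relative that blocks death, was at 558 and 986 CPM with etoposide and 168 and 185 with doxorubicin (-2.1, SE 0.21, adjusted p 0.000204). CASP2, an initiator caspase, gave -2.32 (SE 0.19, adjusted p 0.000133). PMAIP1 (NOXA) was not called (-0.31, 95% interval -0.79 to 0.17). The BBC3 call was lost without the term for the cell line.

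Stress response genes were called in both directions, with shares to be read against 24.1% higher and 22.3% lower over all genes. The integrated stress response, in which ATF4 drives amino acid and stress genes, had 4 called higher and 11 lower of 38 (median -0.4). Without MDA-MB231 doxorubicin the counts were 2 and 13, and without the second MDA-MB231 DMSO library 3 and 17. Total-count scaling gave 2 and 15. ATF4 was at 278, 277 and 46.7 CPM with DMSO, etoposide and doxorubicin in U2OS and at 160, 166 and 33.8 in MDA-MB231, so etoposide stood at the DMSO level (-0.02, adjusted p 0.952) and doxorubicin was lower in both lines. The direct difference was -2.43 (SE 0.15, adjusted p 0.0001). Its targets TRIB3, CHAC1 and SLC38A2 gave -2.44, -2.7 and -2.42, while DDIT3 (CHOP) was not called (-0.73, adjusted p 0.152). HMOX1, the heme oxygenase, was at 40.7, 75.1 and 5.18 CPM in U2OS and 14.5, 37.8 and 4.07 in MDA-MB231, a difference of -3.52 (SE 0.32, adjusted p 0.000148), or -4.15 without MDA-MB231 doxorubicin. OSGIN1, another gene of the NRF2 list, gave -3.62, ranging from -4.84 without MDA-MB231 doxorubicin to -2.73 without U2OS doxorubicin. The list as a whole did not follow them: of 31 NRF2 targets, 15 were called higher and 8 lower (median 0.5), or 9 and 10 with total-count scaling, and ABCC3 and AKR1B1 gave 2.35 and 1.56. ABCC3 was 2.96 without MDA-MB231 etoposide. Of 27 ER chaperone and unfolded protein response genes, 11 were called higher and 2 lower (median 0.39), or 8 and 5 with total-count scaling, with PDIA6, P4HB and HSP90B1 at 1.22, 1.12 and 1.12. That list gave 7 higher without U2OS etoposide, 8 higher and 4 lower without U2OS doxorubicin, and a median of 0.05 with total-count scaling. HERPUD1, which serves ER-associated degradation, was the lowest of that list, at 65 and 88.1 CPM with etoposide and 5.52 and 5.8 with doxorubicin (-3.76, SE 0.28, adjusted p 0.000101). Heat shock genes were split, 7 higher and 6 lower of 30 (23.3% and 20%, close to the shares of all genes), with a median of 0.18, or 5 and 10 with total-count scaling (median -0.16). DNAJB1, a cofactor of HSP70, was at 354 and 514 CPM with etoposide and 37.4 and 71.8 with doxorubicin (-3.01, SE 0.27, adjusted p 0.000145), whereas HSPB1, a small heat shock protein, gave 1.64 (SE 0.18, adjusted p 0.000285). HMOX1, HSPB1, PDIA6, HSP90B1, ABCC3 and AKR1B1 lost their calls without the term for the cell line.

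Among the lists, those of the ribosome and of respiration had the largest shares of members called. Of 77 cytosolic ribosomal proteins, 74 were called higher with doxorubicin and 0 lower (median 1.1), of 15888 genes tested in edgeR of which 24.1% were called higher. At total-count scaling 66 were higher and 0 lower (median 0.76). Their summed level was 25660 CPM with DMSO, 22010 with etoposide and 50220 with doxorubicin in U2OS, and 23270, 19550 and 40310 in MDA-MB231. RPL23A, a protein of the large subunit, was at 82, 60.2 and 177 CPM in U2OS and 78.9, 54.8 and 143 in MDA-MB231, a difference of 1.47 (SE 0.15, adjusted p 0.000194). RPS29, of the small subunit, was at 104, 95.9 and 341 CPM and at 103, 77.7 and 181 in the same order (1.54, SE 0.23, adjusted p 0.000797). RPS26 and RPL39 gave 2.03 and 1.58, the latter a call lost without the term for the cell line. RPL36A was the lowest member, at -0.91 (adjusted p 0.116). Ribosomal protein genes have many processed copies, reads shared with a copy go uncounted, and the doxorubicin libraries had the larger shares of reads aligned to several places given above, so these levels are uncertain. Against DMSO, 70 were called higher and 1 lower with doxorubicin (median 0.85) and 0 higher and 11 lower with etoposide (median -0.24).

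Nuclear genes of the respiratory chain gave 69 called higher and 0 lower of 76 (median 1). At total-count scaling the counts were 56 and 1 (median 0.66). ATP5G1, subunit c of ATP synthase, was at 66.9, 45.5 and 136 CPM in U2OS and 85.1, 54 and 187 in MDA-MB231, a difference of 1.68 (SE 0.18, adjusted p 0.000257). NDUFA7, NDUFC1 and NDUFB3, subunits of complex I, gave 1.55, 1.4 and 1.36, the last a call lost without the term for the cell line. The summed level was 8408, 7522 and 15310 CPM in U2OS and 8067, 7775 and 14390 in MDA-MB231. Of 75 mitochondrial ribosomal proteins, 28 were called higher and 11 lower (median 0.29), with MRPL24 at 1.65 and MRPS31 at -1.66, and 18 and 16 were called with total-count scaling (median -0.03). Without MDA-MB231 etoposide the counts were 18 and 6, without MDA-MB231 doxorubicin 20 and 22, without U2OS doxorubicin 38 and 5 and without U2OS etoposide 25 and 6. The proteasome had 23 higher and 4 lower of 46 (median 0.4), 16 and 12 with total-count scaling (median 0.05), and 19 and 10 without MDA-MB231 doxorubicin. PSMB5, a catalytic subunit, was at 145 and 174 CPM with etoposide and 290 and 395 with doxorubicin (1.09, SE 0.13, adjusted p 0.000364), while the assembly factor PSMG3 gave -1.85 (SE 0.24, adjusted p 0.00049).

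**Figure D3:**
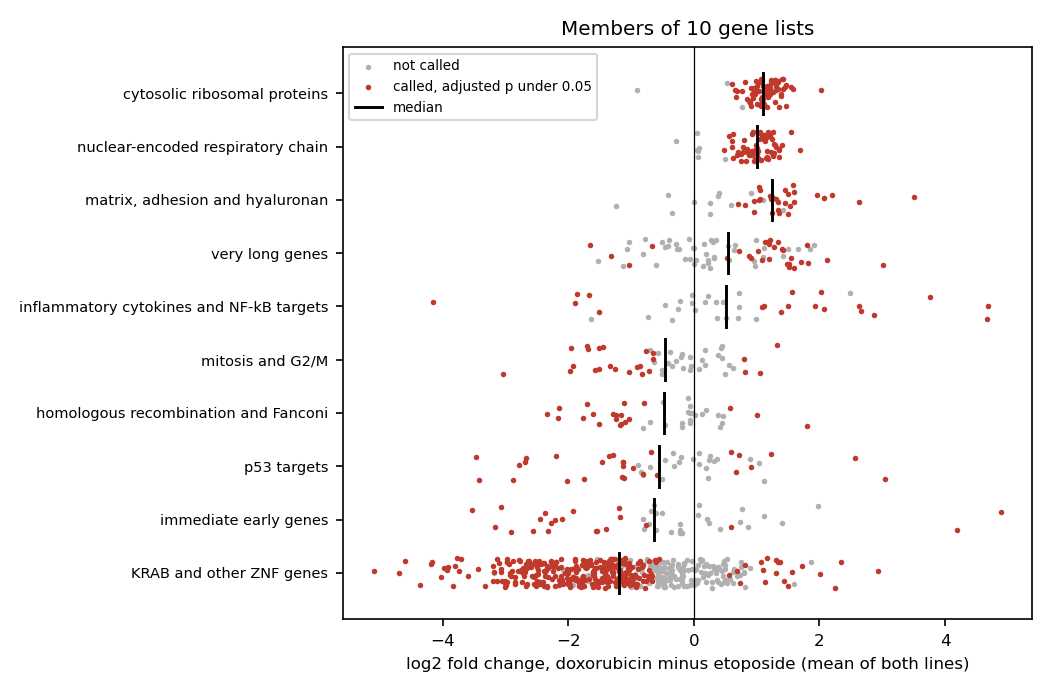
Each point is a tested gene of 1 of 10 lists, placed by its log2 fold change of doxorubicin minus etoposide, red where called at an adjusted p under 0.05 and grey otherwise, and the black bar is the list median. Ribosomal protein and respiratory chain genes lie close together around medians of 1.1 and 1, while ZNF genes spread from -5.1 to 2.93 around a median of -1.2.

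Among the lists, ZNF genes had the largest share called lower with doxorubicin. The list held 491 tested genes named ZNF, many of which encode repressors with a KRAB domain. With doxorubicin 296 were called lower (60.3%) and 20 higher (4.07%) than with etoposide, with a median of -1.2. Within lines the median was -1.03 (U2OS) and -1.06 (MDA-MB231), and the ratio lay below 0 for 401 genes in U2OS and 397 in MDA-MB231. Leaving out 1 library gave 246 to 297 lower, and 12 to 18 higher, fewest without U2OS etoposide. Against DMSO the values stood on either side of 0: etoposide gave 79 higher and 11 lower (median 0.44), and doxorubicin 30 higher and 239 lower (median -0.8). The summed level was 9241 CPM with DMSO, 10360 with etoposide and 6714 with doxorubicin in U2OS, and 9014, 11710 and 5970 in MDA-MB231. ZNF658 gave -4.36 (SE 0.57, adjusted p 0.000485) from 2.97 and 1.22 CPM with etoposide and 0.146 and 0.0468 with doxorubicin. The doxorubicin levels of ZNF658 are 3 and 1 reads, so its fold rests on few reads. Members share sequence, and reads that fit several of them are not counted. The ZNF promoters held the ETS motif CCGGAAG in 123 of 414 windows, against 14.5% of tested genes.

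Few topoisomerases and enzymes that repair their DNA adducts were called. Of 11 tested, 0 were called higher and 1 lower (edgeR), the lower one being TOP3B at -0.69 (adjusted p 0.0399), a call that 8 of the 11 single-library omissions ended. With total-count scaling 8 were called lower. TOP2A, the proliferation-linked drug target, was at 970, 625 and 388 CPM with DMSO, etoposide and doxorubicin in U2OS and at 970, 380 and 421 in MDA-MB231. Both drugs were below DMSO (-1.04 and -1.33, both called), and the direct difference was -0.29 with an interval of -0.78 to 0.2. TOP2B, the other isoform, was at 212 and 161 CPM with etoposide and 202 and 171 with doxorubicin, a difference of 0 with an interval of -0.36 to 0.36. TOP1 gave 0.31 (-0.21 to 0.83), TDP2, which removes trapped topoisomerase II, -0.37 (-0.78 to 0.03), and TDP1 -0.51 (-1.07 to 0.05). ABC transporters and drug-metabolizing enzymes had 10 higher and 0 lower of 22 (median 0.68), with 7 and 1 under total-count scaling and 0 and 0 without the term for the cell line (edgeR). ABCC1, an exporter of anthracyclines, was at 127, 53.8 and 131 CPM in U2OS and 100, 34.4 and 69.4 in MDA-MB231 (1.16, SE 0.18, adjusted p 0.000925), a call lost without the term for the cell line. ABCB1, P-glycoprotein, was at 4.2, 44 and 5.71 CPM in U2OS, highest with etoposide, and at most 0.187 CPM in MDA-MB231, and its difference of -2.26 missed the threshold (adjusted p 0.0508) and was 0.52 without U2OS etoposide and 1.04 without U2OS doxorubicin.

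Genes of repair and of the cell cycle were lower with doxorubicin in parts. End joining and checkpoint genes had 6 higher and 15 lower of 32 (median -0.35), and leaving out 1 library gave 10 to 15 lower, fewest without MDA-MB231 etoposide. H2AFX, the histone variant phosphorylated at breaks, was at 139, 105 and 16.5 CPM in U2OS and 128, 153 and 27.2 in MDA-MB231, a difference of -2.57 (SE 0.23, adjusted p 0.000143). NBN, a subunit of the MRN break sensor, gave -1.6 (SE 0.18, adjusted p 0.000303) and lost its call without the term for the cell line. Homologous recombination and Fanconi genes had 3 higher and 17 lower of 40 (median -0.47), with the helicase BLM at -2.16, the nuclease scaffold SLX4 at -2.14 and FANCB at -2.34. Within lines the median of this list was -0.9 in U2OS (8 ratios above 0, 32 below) and -0.11 in MDA-MB231 (19 above, 21 below). With 1 library left out the list median ran from -0.91 to -0.17. BLM lost its call without the term for the cell line. BRCA1 was at 74.6 CPM with etoposide and 34.7 with doxorubicin in U2OS but 21.1 and 40.2 in MDA-MB231, so that its mean difference was -0.06 (95% interval -0.93 to 0.82).

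Mitosis genes were below DMSO with both drugs: 42 of 50 were called lower with doxorubicin (median -1.3) and 28 with etoposide (median -0.84). Directly, 4 were called higher and 20 lower (median -0.45), or 2 and 28 with total-count scaling. Within lines the median was -0.72 (U2OS) and -0.08 (MDA-MB231). The counts of the list were 9 and 13 without U2OS etoposide, 8 and 14 without U2OS doxorubicin, 2 and 28 without MDA-MB231 etoposide and 2 and 22 without MDA-MB231 doxorubicin. KIF20B, a kinesin of cytokinesis, was at 113, 93.6 and 11.8 CPM in U2OS and 160, 72 and 8.23 in MDA-MB231 (-3.05, SE 0.28, adjusted p 0.000145). CCNA2, cyclin A2, was at 159 and 114 CPM with etoposide and 32.2 and 40.6 with doxorubicin (-1.92, SE 0.21, adjusted p 0.000266), while CCNB1, cyclin B1, was not called (-0.58, adjusted p 0.0898). Replication and G1/S genes were split, 21 higher and 17 lower of 54 (median 0.26), or 13 and 19 with total-count scaling (median -0.08). Leaving out 1 library gave 13 to 26 higher, lowest without MDA-MB231 etoposide, and 9 to 20 lower, fewest without U2OS doxorubicin. E2F2, the highest member and a transcription factor of S phase entry, was at 24.8 and 6.15 CPM with etoposide and 55.2 and 34.7 with doxorubicin (U2OS, then MDA-MB231). It gave 1.93 (SE 0.51, adjusted p 0.014), but its call was lost without MDA-MB231 doxorubicin (0.96, adjusted p 0.166), MDA-MB231 etoposide (adjusted p 0.0997) or U2OS etoposide (adjusted p 0.0645), and without the term for the cell line, and was 2.66 without U2OS doxorubicin. POLD3, a subunit of DNA polymerase delta, gave -2.56, or -3.21 without MDA-MB231 doxorubicin, and SLBP, which binds histone mRNA stem loops, -2.07 (SE 0.2, adjusted p 0.000164).

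Several cytoskeletal and matrix genes were higher with doxorubicin than with etoposide. Of 16 breast epithelial markers tested, 6 were called higher and 0 lower (median 0.8), and of 14 osteoblast and mesenchymal markers 5 higher and 1 lower (median 1.11), the lower one being SNAI2, a repressor of epithelial genes, at -1.91 (adjusted p 0.00269). Total-count scaling gave 5 and 2 for the first list and 4 and 2 for the second, of which 3 were called higher without U2OS etoposide. KRT7, a simple-epithelium keratin, was at 279 CPM with DMSO, 22.2 with etoposide and 272 with doxorubicin in U2OS and at 268, 37 and 321 in MDA-MB231. Etoposide was the single low library of each line, 12.2-fold and 8.67-fold below doxorubicin, with a direct difference of 3.34 (SE 0.23, adjusted p 0.0001). VIM, the mesenchymal intermediate filament, was at 1850, 597 and 2700 CPM in U2OS and 2370, 604 and 2660 in MDA-MB231 (2.16, SE 0.26, adjusted p 0.000338). It is on both marker lists and is counted among the members called higher in each. KRT8 gave 1.62 (SE 0.24, adjusted p 0.000876), and AXL, a receptor tyrosine kinase, was at 582, 122 and 506 CPM and at 1080, 372 and 1160 (1.83, SE 0.28, adjusted p 0.000987). Not all members stood at the DMSO level with doxorubicin. KRT18, the partner of KRT8, was at 409, 106 and 197 CPM in U2OS and 202, 70.9 and 107 in MDA-MB231, and KRT19 at 167, 70.5 and 65.3 in MDA-MB231 in the same order. KRT7 and VIM were called below DMSO with etoposide (-3.18 and -1.65) and not called with doxorubicin (0.16 and 0.51). Matrix, adhesion and hyaluronan genes had 30 called higher and 0 lower of 43 (69.8%, median 1.24). Total-count scaling gave 25 and 1 (median 0.87), and the fit without the term for the cell line 2 and 0. With 1 library left out the median ran from 0.99 to 1.47. Against DMSO they gave 0 higher and 8 lower with etoposide (median -0.35) and 20 higher and 1 lower with doxorubicin (median 0.82). Their summed level was 16580, 11180 and 32290 CPM in U2OS and 15830, 11680 and 20640 in MDA-MB231. HAS2, which makes hyaluronan, was at 18.6, 0.811 and 11 CPM and at 67.1, 1.9 and 16.3, and its call (3.51, adjusted p 0.038) was lost when any of 8 libraries was left out, with adjusted p 0.208 without U2OS doxorubicin. MMP3, a matrix protease, gave 2.06, and lost its call without U2OS etoposide (1.67, adjusted p 0.0601). KRT8, SNAI2, AXL, HAS2 and MMP3 lost their calls without the term for the cell line.

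Very long genes, whose transcription takes hours, were low with etoposide. Of 75 tested, with a median genomic length of 731000 bases, 31 were called below DMSO and 2 above with etoposide (median -0.78), and 15 below and 6 above with doxorubicin (median -0.15). Directly, 25 were called higher and 4 lower with doxorubicin (33.3% and 5.33%, median 0.55), or 19 and 8 with total-count scaling (median 0.19). Without U2OS etoposide 15 were called higher, and the lower count was 0 to 5 with 1 library left out, 0 without MDA-MB231 etoposide (edgeR). The median ratio was 0.68 in U2OS and 0.15 in MDA-MB231. DOCK2, an exchange factor for RAC, was at 7.17, 1.3 and 13.8 CPM in U2OS and 17.9, 3.8 and 23 in MDA-MB231, a difference of 3.01 (SE 0.32, adjusted p 0.00024). NRG1, a ligand of ERBB receptors, was at 25.2, 2.7 and 9.86 CPM and at 92.6, 11.6 and 58.7 (2.12, SE 0.28, adjusted p 0.000492), below DMSO with both drugs (-3 and -0.88, both called). Its levels overlapped between drugs across the lines and not within a line. DOCK2 and NRG1 lost their calls without the term for the cell line.

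Over all genes, the share called varied with transcript length, genomic length and level, each divided into 5 bins of near equal size. Among the shortest bin of mature transcripts (up to 1929 bases, 2775 genes) 38.8% were called higher and 11.1% lower with doxorubicin, with a median of 0.62. In the longest bin (5788 bases or more) 16.5% were higher and 27.3% lower (median -0.15). By genomic length the shortest bin had 30.8% higher and 16.9% lower (median 0.35) and the longest 20.7% and 18.4% (median 0.06). By DMSO level, the most abundant bin (82.75 CPM or more) had 41% higher and 22.9% lower (median 0.27), and the middle bin 18.2% and 31.9% (median -0.23). The least abundant bin (up to 1.306 CPM), where ratios rest on few reads, had 20.5% higher and 5.13% lower. Its median of 0.63 was the largest of the 5. These properties overlap: the median transcript of the ribosomal protein list is 1170 bases and that of the respiratory chain 1260 bases, against 3770 bases for ZNF genes. The shares are descriptions over genes, which are not replicates, and the part of length in any single result was not tested.

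**Figure D4:**
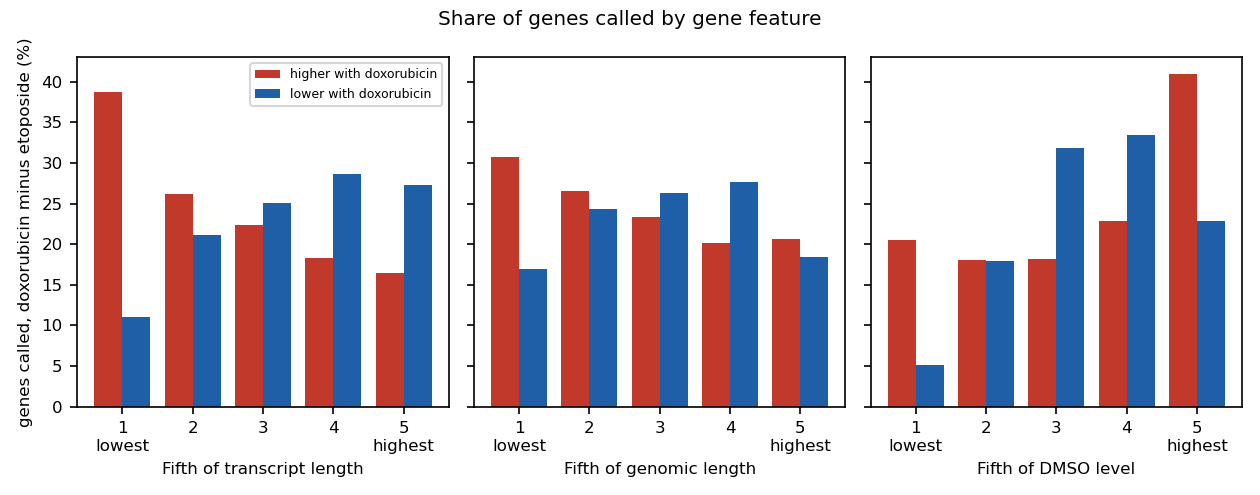
Bars give the percent of tested genes called higher (red) or lower (blue) with doxorubicin than with etoposide, in 5 bins of mature transcript length, genomic length and DMSO level from lowest to highest. The share called higher goes from 38.8% in the shortest bin of transcripts to 16.5% in the longest, and 41% of the most abundant bin is called higher.

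Genes of the transcription and RNA machinery were mixed. The shares called higher and lower were 11.4% and 37.1% for the pause and elongation list and 26.9% and 36.5% for splicing factors. Over all genes they were 24.1% and 22.3%. POLR2A, the largest subunit of RNA polymerase II, was at 212, 415 and 1620 CPM with DMSO, etoposide and doxorubicin in U2OS and at 296, 795 and 1970 in MDA-MB231. Both drugs were called above DMSO (1.18 and 2.81), and the direct difference was 1.63 (SE 0.17, adjusted p 0.00024), a call lost without the term for the cell line. The pause and elongation list as a whole had 4 higher and 13 lower of 35 (median -0.34), or 3 and 22 with total-count scaling. CDK7, the kinase of initiation factor TFIIH, gave -2.14 (SE 0.22, adjusted p 0.000231) and CDK12, an elongation kinase needed for long repair genes, -2.18 (SE 0.3, adjusted p 0.000644), or -1.53 without MDA-MB231 etoposide. HEXIM1, an inhibitor of the elongation factor P-TEFb, was above DMSO with both drugs (1.5 and 1.15), with a direct difference of -0.34 that was not called (adjusted p 0.106). SR and hnRNP splicing factors had 14 higher and 19 lower of 52 (median -0.13), or 8 and 29 with total-count scaling (median -0.48), the lower count falling to 11 without MDA-MB231 etoposide. SRSF6 was at 192 and 163 CPM with etoposide and 45.5 and 40.8 with doxorubicin (-2.04, SE 0.16, adjusted p 0.000119). SRSF3 gave -2.56, from -3.33 without MDA-MB231 doxorubicin to -1.97 without U2OS doxorubicin. NEAT1, the RNA scaffold of paraspeckles, was at 492, 487 and 83.1 CPM with DMSO, etoposide and doxorubicin in U2OS, and in MDA-MB231 at 257 CPM with DMSO and 49.1 with doxorubicin, with etoposide 7.98-fold above the latter (-2.8, SE 0.41, adjusted p 0.000768), a call lost without the term for the cell line. SNHG1, a snoRNA host gene, was higher at 1.68 (SE 0.22, adjusted p 0.000485).

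Histone genes were called in both directions. Replication-dependent histones, whose mRNAs end in a stem loop instead of a poly(A) tail, had 17 called higher and 1 lower of 41 tested (72 listed, median 1.54). Most of the genes called higher had few reads with etoposide: with a CPM of at least 1 required in each doxorubicin and etoposide library, 11 genes were tested, 1 was called higher and 1 lower, and the median was 0.04. The fit without the term for the cell line called 2 higher and 0 lower. The median ratios within lines were 0.77 and 0.48, and most of the called genes had few reads: HIST1H2AM was at 0.108 and 1.13 CPM with etoposide and 2.2 and 12.3 with doxorubicin (3.72, SE 0.45, adjusted p 0.000348). HIST1H1A had 1 and 0 reads with etoposide and 26 and 15 with doxorubicin, so its fitted 5.75 (7.1 without U2OS doxorubicin, 6.98 without U2OS etoposide) depends on the prior count. HIST1H2BC, with 740 and 991 reads with etoposide and 162 and 84 with doxorubicin, was the 1 gene called lower (-2.43, adjusted p 0.015), and HIST1H2AC, also well counted, was at -1.66 (adjusted p 0.0967). Copies share sequence and their counts are uncertain. Without U2OS etoposide 10 were called higher and 4 lower, and HIST1H2AM and HIST1H1A lost their calls without the term for the cell line. Among replacement and linker variants, which are polyadenylated, H1F0 was at 928 and 306 CPM with etoposide and 200 and 46 with doxorubicin (-2.47, SE 0.18, adjusted p 0.0001), a call lost without that term. The list of chromatin remodelers and variants had 4 higher and 11 lower of 26 (median -0.42), or 2 and 15 with total-count scaling, with H2AFJ as its highest member at 1.58.

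**Figure D5:**
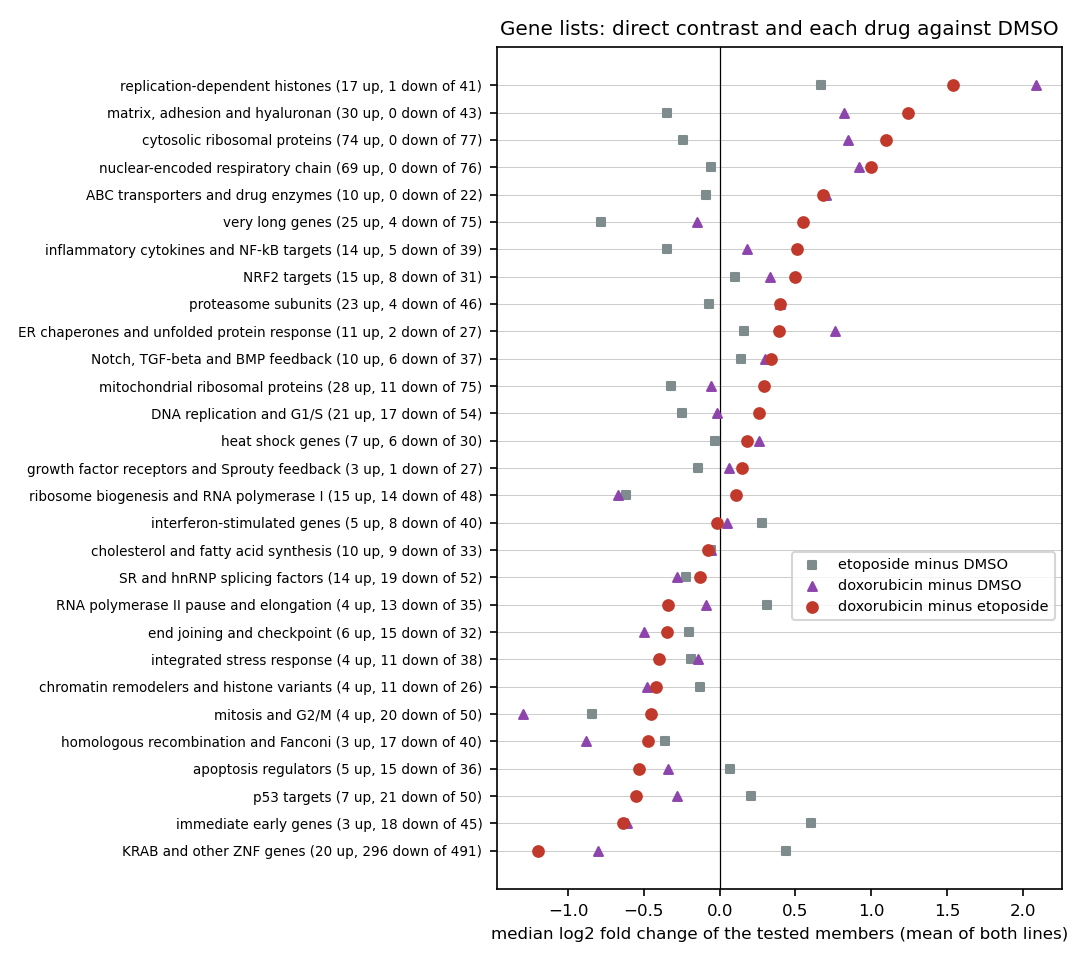
Median log2 fold change of the tested members of 29 gene lists for doxorubicin minus etoposide (circles), doxorubicin minus DMSO (triangles) and etoposide minus DMSO (squares), with the counts called up and down in the direct contrast beside each name. ZNF genes stand at 0.44 with etoposide and -0.8 with doxorubicin, and very long genes at -0.78 and -0.15, both against the same DMSO libraries.

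Whether doxorubicin and etoposide differed by unequal amounts in the 2 lines was tested for each gene by adding terms for each drug in U2OS to the edgeR fit, which left 2 residual degrees of freedom. No gene was called (0 of 15888, lowest adjusted p 0.0889), 3068 had an unadjusted p under 0.05, and limma-voom also called 0, with 3307 at that level. Among the genes described, the lowest adjusted p was that of FGFR3, a fibroblast growth factor receptor, which was at 36.4 and 16.5 CPM with etoposide and doxorubicin in U2OS and at 64.8 and 3.23 in MDA-MB231 (adjusted p 0.0889). BRCA1, CYR61 and CDK12 were among those that followed (adjusted p 0.0894 for each). FGFR3 was called lower with doxorubicin on average (-2.88, adjusted p 0.00698), and this call was lost without MDA-MB231 doxorubicin (-2.09, adjusted p 0.0669) and without the term for the cell line. Its value was -1.39 without MDA-MB231 etoposide, -3.74 without U2OS doxorubicin and -4.01 without U2OS etoposide.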

How the data were processed

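RNA-seq of total RNA, extracted with an RNeasy kit per the labels' protocols, gave 11 libraries, of which 6 are compared. The authors deposited raw read counts for 23228 gene symbols, with 5 summary lines. Per the submitters' processing notes, CASAVA 1.8.2, TopHat2 2.0.8b and HTSeq were used, and hg19 and mm9 are the builds named. The sources used here do not state strand or RNA selection, so antisense reads cannot be told apart.

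The summary lines were left out. Counts were fitted in edgeR 4.0.16 (R 4.3.3) with TMM, filterByExpr and robust quasi-likelihood over all 11 libraries. The model had drug terms and 3 block levels (U2OS, MDA-MB231 with and without 8hr in the title), with 4 residual degrees of freedom and a common biological coefficient of variation of 0.213. The pairing comes from the cell line. SE is the size of the log2 change over the root of F. The MDA-MB231 DMSO libraries differed beyond sampling noise (chi-square per degree of freedom 28.1). In simulated counts for this contrast (15570 genes), 51% of 100 genes changed 2-fold and 99% of 100 changed 4-fold were called, with 8 false calls. The simulation gave every gene the same dispersion, let no drug effect differ between lines, and changed only genes with a mean count above 100. These rates therefore check the code and do not give the error rate in the real data.

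Named genes are the 12 highest and 12 lowest called differences that shared their sign between lines and reached 5 CPM in each, up to 4 called members per list with the largest change, and 40 listed genes. Pseudogenes, small RNAs and placeholder symbols were counted, not named. A few genes that the rule names are not reported here. Other genes named were chosen for a motif match or as a list's extreme after values were seen. Members and the 35 lists were chosen with earlier results of these data known. Gene lengths come from RefSeq (15198 matched), transcript lengths from GENCODE (13849 matched). Alternatives were DESeq2 1.42.0, limma-voom (limma 3.58.1), other scalings, filters, blocks and sets of libraries. The test between lines, the bins by level and transcript and the motifs were added after seeing the data.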

Additional observations from a re-analysis of the deposited data

Results flagged for a closer look

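For 6 of the genes named, the doxorubicin over etoposide log2 ratio had opposite signs in the 2 lines, each beyond its counting interval, from 1 library per drug. EGR1 was at 0.45 in U2OS and -0.09 in MDA-MB231, JUN at -0.47 and 0.12, TOP2A at -0.69 and 0.15, TOP2B at -0.07 and 0.09, TOP1 at 0.88 and -0.24, and BRCA1 at -1.09 and 0.91. GDF15 (-1.06 and 0.1), ABCB1 (-2.84 and 0.28) and ZNF285 (-2.74 and 0.13) also had opposite signs, but with an MDA-MB231 value within counting error. In the edgeR test of the difference between lines (2 residual degrees of freedom) none of the 6 was called: the adjusted p was 0.387 for EGR1, 0.369 for JUN, 0.225 for TOP2A, 0.748 for TOP2B, 0.0941 for TOP1 and 0.0894 for BRCA1. Reads aligned to several places, which enter no gene count, made up 37.5% of the U2OS doxorubicin library and 34.4% of the MDA-MB231 doxorubicin library, above the DMSO libraries of the same lines at 32.7% and 30%.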

How the results depend on the processing

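The number of genes called between doxorubicin and etoposide stayed within 1.5 times of 7367 in every alternative but 1. Without a term for the cell line, which pairs the libraries, it was 1807 (702 higher, 1105 lower), with 1900 for doxorubicin minus DMSO and 0 for etoposide minus DMSO (edgeR, 2254 at an unadjusted p under 0.05; limma-voom 0, DESeq2 1353). Leaving out 1 library gave 5376 to 7299 calls for the direct contrast, 4058 to 7057 for doxorubicin minus DMSO and 49 to 3709 for etoposide minus DMSO, and the fit of the 6 libraries alone gave 1362 for the last. For the direct contrast DESeq2 gave 7464, limma-voom 8042, and edgeR with a block for the cell line alone, not split by title, 6870. Of 154 named calls, 73 held in all 22 alternatives, 51 were lost only without the term for the cell line and 30 were lost in others. ZNF285 was the 1 named gene with a call to change sign, from -4.6 to 3.35 without U2OS doxorubicin (-5.93 without MDA-MB231 doxorubicin), with 0 reads in 2 of the 3 MDA-MB231 libraries. With 1 library per line and drug, depth limits genes under about 5 CPM, where ratios rest on few reads.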

Other observations

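Several gene groups showed no common direction between the drugs. Over all genes 24.1% were called higher and 22.3% lower. The shares were 12.5% and 20% for interferon-stimulated genes and 30.3% and 27.3% for cholesterol and fatty acid genes. They were 31.2% and 29.2% for ribosome biogenesis, 27% and 16.2% for the Notch, TGF-beta and BMP list, and 11.1% and 3.7% for growth factor receptors and Sprouty genes. Interferon-stimulated genes had 5 called higher and 8 lower with doxorubicin of 40 (median -0.02), 4 and 14 with total-count scaling, with 3 and 4 without U2OS doxorubicin, 4 and 4 without U2OS etoposide and 3 and 7 without MDA-MB231 etoposide. CXCL10, a T cell chemokine, was at 0.0811 and 0.644 CPM with etoposide and 2.69 and 14 with doxorubicin in U2OS and MDA-MB231. The CXCL10 difference was 5.06 (SE 0.98, adjusted p 0.00304), and its call was lost without MDA-MB231 etoposide (4.25, adjusted p 0.0569) and without the term for the cell line. The value was 6.77 without MDA-MB231 doxorubicin and 4.06 without U2OS doxorubicin, and its levels rest on few reads. Cholesterol and fatty acid genes were split, 10 higher and 9 lower of 33 (median -0.08), 7 and 12 with total-count scaling, with 6 and 6 without MDA-MB231 etoposide and 8 and 14 without MDA-MB231 doxorubicin. ACLY, which makes cytosolic acetyl-CoA, was at 337 and 403 CPM with etoposide and 1170 and 1320 with doxorubicin (1.75, SE 0.18, adjusted p 0.000207), while SQLE, the squalene epoxidase, gave -2.1 (-1.5 without U2OS doxorubicin, -2.8 without MDA-MB231 doxorubicin, and not called without the term for the cell line).

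Ribosome biogenesis and RNA polymerase I genes were below DMSO with both drugs, 28 of 48 called lower with doxorubicin (median -0.67) and 22 with etoposide (median -0.62), and split between them, 15 higher and 14 lower (median 0.11, or 9 and 18 and -0.23 with total-count scaling), with 11 and 9 without U2OS etoposide. RRP1B, a nucleolar protein, was at 102 and 138 CPM with etoposide and 15.7 and 21.7 with doxorubicin (-2.68, SE 0.17, adjusted p 0.0001). POLR3A, the largest subunit of RNA polymerase III, gave -2.12 (SE 0.16, adjusted p 0.000119). Notch, TGF-beta and BMP feedback genes had 10 higher and 6 lower of 37 (median 0.34, or 5 and 8 with total-count scaling), with 3 and 2 without MDA-MB231 etoposide and 5 and 4 without U2OS etoposide. Growth factor receptors and Sprouty genes had 3 higher and 1 lower of 27 (median 0.15, or 1 and 6 and -0.25 with total-count scaling), with 6 and 0 without MDA-MB231 doxorubicin and 2 and 4 without U2OS doxorubicin.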
